A study of Rattus norvegicus with 8 samples.

Results

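The 9 genes C1qa, C1qb, C1s, C2, C3, C7, C3ar1, Cfi and Cd55 were followed in rat kidney allografts. They were found by gene name or RefSeq accession among the non-control probes of an Agilent whole-genome array, where 11 of 41012 probes stood for them, which is 9 of 35534 names. C1qa and C1s had 2 probes each, and Cd55 was listed under its older name Daf1. All 11 probes passed the filter on dim signals, C7 through the low-difference and anti-IL6R grafts alone, and the other 10 probes were well above background on all 8 arrays. Since C7 passed only through groups in which it was high, it is left out of counts, medians and correlations over the genes, which cover the 8 others. Only the counts of called genes and of changed signs cover all 9. No p-value is given for C7 on its own.

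Complement is a set of plasma and cell-surface proteins that marks cells for removal and opens pores in membranes. The recognition molecule C1q binds its target and activates the proteases C1r and C1s, of which C1s cleaves C4 and C2 to build an enzyme that splits C3. Fragments of C3 coat the target, the small fragment C3a signals through the receptor C3aR, and the terminal proteins, C7 among them, assemble the membrane attack complex, while factor I and CD55 hold the cascade back. In the kidney, C3 can be made by tubular cells and C1q by macrophages, and complement is known for its part in reperfusion injury and rejection of grafts.

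The grafts came from Dark Agouti donors (DA; RT1a) and were placed orthotopically, after 25 min of storage at 4 °C in UW solution, into Lewis recipients (LEW; RT1l) that had lost both own kidneys and differ from the donor at the major histocompatibility complex. All rats were male and inbred, weighed 120 to 250 g, and the grafts were taken 24 h after surgery. Of 4 groups with 2 biological replicates each, the anti-IL6R group received 500 µg of an antibody against the interleukin-6 receptor, once and intravenously, right after surgery. The prednisolone group received 15 mg/kg of this glucocorticoid in the same way. Donors were 20 to 50% lighter than recipients in the treated groups and in the untreated high-difference group, and 0 to 20% lighter in the untreated low-difference group. No group of unoperated kidneys or of grafts between Lewis rats was analysed here, and the arrays do not tell donor from recipient RNA.

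The level of a probe is its log2 signal minus the 75th percentile of its array, so a step of 1 is a doubling of signal, and levels of different probes are not set against each other. The share of spots well above background was 71.5% and 74.0% in anti-IL6R grafts and 70.2% and 64.5% in prednisolone grafts. It was 66.5% and 65.3% in high-difference grafts and 71.7% and 72.1% in low-difference grafts. This share was thus lowest on the second prednisolone array and both high-difference arrays, and its part in the differences below was not tested. All 7 proximal tubule and all 6 loop and distal nephron markers were well above background on all 8 arrays. Among 6 hepatocyte genes this held for Fgb and Apoa2, and for Alb on 7 arrays, while Apoa1, Ttr and Ahsg did not pass the filter. The untreated groups shared 1 slide and the treated groups a second, so for any treated group set against an untreated one, treatment and slide cannot be told apart. High against low difference, and anti-IL6R against prednisolone, were each compared within 1 slide. The 2 prednisolone arrays correlated at r = 0.956 over genes, below the 0.981 to 0.992 of the other pairs, and several complement genes lay far apart on them.

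Promoter sequence was available for 6 of the 9 genes, and 4 are shown: C1qa, C1qb and C3ar1, whose levels ran together over the arrays, and C3, whose levels did not follow them. Each is the 250 bases before the annotated start of the gene in RefSeq's GRCr8 assembly, 5′ to 3′ on the strand of the gene, which is the minus strand for all 4. The positions are chr5:154419934-154420183 for C1qa, chr5:154407828-154408077 for C1qb, chr4:157756531-157756780 for C3ar1 and chr9:2201340-2201589 for C3. Capitals mark matches, on either strand, to letters known to be bound by regulators of inflammation and of the glucocorticoid response: TTCNNNGAA (STAT), GAAA, 2 bases and GAAA (interferon response), TTGCNNAA (C/EBP), GNACA, 3 bases and TGTNC (glucocorticoid receptor), and GGG, 5 bases and CC (NF-kB).
C1qa: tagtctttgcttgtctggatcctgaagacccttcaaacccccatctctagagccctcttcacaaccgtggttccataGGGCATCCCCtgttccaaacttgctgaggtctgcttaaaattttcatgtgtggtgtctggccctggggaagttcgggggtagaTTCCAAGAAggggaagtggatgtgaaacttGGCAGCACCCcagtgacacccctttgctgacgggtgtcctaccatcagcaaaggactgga
C1qb: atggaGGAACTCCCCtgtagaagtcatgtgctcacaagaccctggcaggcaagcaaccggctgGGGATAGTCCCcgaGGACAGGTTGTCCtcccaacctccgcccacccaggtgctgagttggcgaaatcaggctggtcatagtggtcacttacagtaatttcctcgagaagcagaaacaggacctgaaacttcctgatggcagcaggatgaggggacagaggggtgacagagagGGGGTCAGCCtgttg
C3ar1: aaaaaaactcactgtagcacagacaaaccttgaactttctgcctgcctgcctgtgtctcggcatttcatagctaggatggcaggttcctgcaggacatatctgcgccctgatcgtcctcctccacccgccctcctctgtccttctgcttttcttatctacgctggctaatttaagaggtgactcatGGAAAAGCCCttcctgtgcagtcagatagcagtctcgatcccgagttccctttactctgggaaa
C3: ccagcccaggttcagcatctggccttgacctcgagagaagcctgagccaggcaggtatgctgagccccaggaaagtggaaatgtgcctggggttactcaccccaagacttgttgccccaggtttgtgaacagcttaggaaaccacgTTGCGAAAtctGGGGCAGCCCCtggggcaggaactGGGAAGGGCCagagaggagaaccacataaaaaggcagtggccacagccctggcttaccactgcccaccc

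The STAT letters stood once in C1qa, as TTCCAAGAA 90 bases before the start, and 7.67% of 33469 RefSeq windows of the same length held them. The C/EBP letters stood once in C3, as TTGCGAAA 104 bases before the start (9.22% of windows), and the glucocorticoid receptor letters once in C1qb, as GGACAGGTTGTCC 173 bases before the start (0.373% of windows). The interferon letters were in none of the 6 windows (3.41% of all). The loose NF-kB letters, which 42.3% of windows held, stood in 5 of the 6, several times overlapping themselves on opposite strands, and Cfi had no match of any kind. These matches describe the letters of the windows and not binding.

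**Figure D1:**
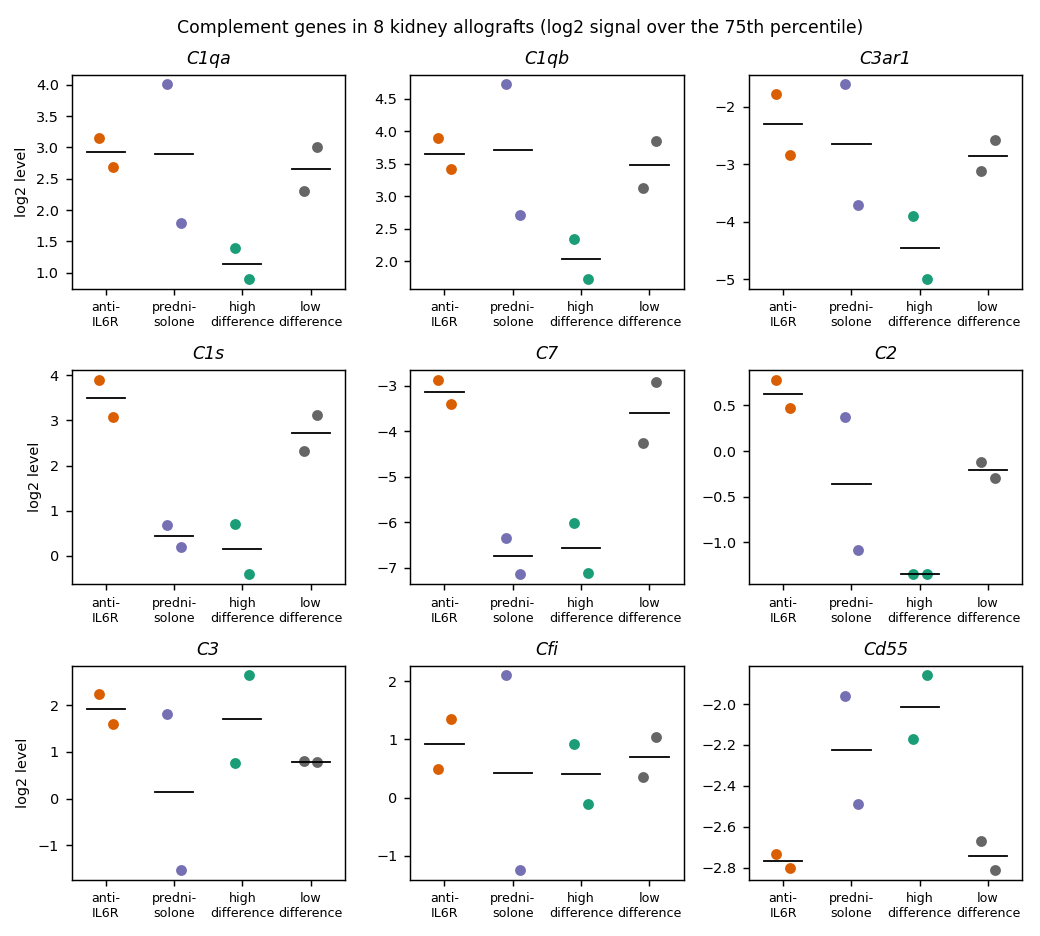
Level of each of the 9 genes on each array (points, replicate 1 left and replicate 2 right; bars, mean of 2 arrays), with a log2 axis of its own for each gene. C1qa, C1qb and C3ar1 were lowest in the high-difference grafts, and C1s and C7 were low in both prednisolone and high-difference grafts; C7 was not well above background in these 2 groups.

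C1qa and C1qb encode 2 of the 3 chains of C1q and are neighbours in the genome, with C1qc between them. C1qa had levels of 3.15 and 2.69 in anti-IL6R grafts, 4.01 and 1.79 in prednisolone grafts, 1.39 and 0.90 in high-difference grafts and 2.30 and 3.01 in low-difference grafts. Both high-difference arrays lay below the 6 others, and the prednisolone pair held the highest array of all and the third lowest. C1qb had levels of 3.89 and 3.42 in anti-IL6R grafts, 4.72 and 2.71 in prednisolone grafts, 2.35 and 1.73 in high-difference grafts and 3.12 and 3.85 in low-difference grafts. It ordered the arrays as C1qa did, with the high-difference grafts again below all others and the other 3 groups overlapping. The second C1qa probe gave means of 1.96 ± 0.31, 1.94 ± 1.87, -0.50 ± 0.86 and 1.45 ± 0.64 in anti-IL6R, prednisolone, high-difference and low-difference grafts (SD, n = 2 each), the same order of groups as the first.

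C3ar1, the receptor for C3a on myeloid cells, had levels of -1.78 and -2.83 in anti-IL6R grafts, -1.61 and -3.70 in prednisolone grafts, -3.90 and -4.99 in high-difference grafts and -3.12 and -2.58 in low-difference grafts. As for C1q, the high-difference arrays were the 2 lowest, and the means of the other 3 groups differed by less than the spread of their arrays.

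C1s, the protease of the C1 complex that cleaves C4 and C2, had levels of 3.90 and 3.08 in anti-IL6R grafts, 0.69 and 0.20 in prednisolone grafts, 0.70 and -0.41 in high-difference grafts and 2.32 and 3.11 in low-difference grafts. The arrays fell into a high set, anti-IL6R with low difference, and a low set, prednisolone with high difference, with no overlap between them. The second C1s probe gave group means of 0.32 ± 0.39, -2.37 ± 0.06, -2.94 ± 0.94 and -0.51 ± 0.53 in the same order of groups (SD, n = 2 each), and split the arrays in the same way.

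C7, the terminal protein that anchors the growing attack complex in the membrane, had levels of -2.87 and -3.40 in anti-IL6R grafts and -4.27 and -2.91 in low-difference grafts. On all 4 prednisolone and high-difference arrays it was not well above background, with measured signals of -6.36 and -7.15 in prednisolone grafts and -6.01 and -7.12 in high-difference grafts. Its arrays fell into the same sets as those of C1s, with the lower set known only as a bound. Because C7 passed the filter through the higher set alone, this likeness to C1s is not separate support.

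C2, whose product carries the protease of the classical C3 convertase, had levels of 0.78 and 0.47 in anti-IL6R grafts, 0.37 and -1.08 in prednisolone grafts, -1.35 and -1.34 in high-difference grafts and -0.12 and -0.30 in low-difference grafts. The anti-IL6R arrays were the 2 highest and the high-difference arrays the 2 lowest, and the prednisolone pair spanned the low-difference pair.

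C3, the protein on which all complement pathways meet, had levels of 2.23 and 1.59 in anti-IL6R grafts, 1.81 and -1.53 in prednisolone grafts, 2.64 and 0.76 in high-difference grafts and 0.80 and 0.78 in low-difference grafts. No 2 neighbours in the order of group means, anti-IL6R, high difference, low difference and prednisolone, lay apart beyond their arrays. The highest and the lowest array were the second high-difference and the second prednisolone one. The fibrinogen gene Fgb also had its highest and lowest levels on these 2 arrays, though its order of group means differed from that of C3. Fgb had levels of 4.28 and 4.48 in anti-IL6R grafts, 5.64 and 1.57 in prednisolone grafts, 5.76 and 8.32 in high-difference grafts and 3.68 and 5.44 in low-difference grafts. Its relation to C3 was not tested.

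Cfi, the protease factor I that cuts C3b and C4b, had levels of 0.49 and 1.35 in anti-IL6R grafts, 2.10 and -1.24 in prednisolone grafts, 0.92 and -0.11 in high-difference grafts and 0.36 and 1.05 in low-difference grafts. All groups overlapped, and the prednisolone arrays were the highest and the lowest of the 8. Cd55, which encodes decay-accelerating factor, a membrane protein that breaks up C3 convertases, had levels of -2.73 and -2.80 in anti-IL6R grafts, -1.96 and -2.49 in prednisolone grafts, -2.17 and -1.86 in high-difference grafts and -2.67 and -2.81 in low-difference grafts. It had the narrowest range over the 8 arrays among the 11 probes, 0.95, and its order of arrays ran against that of C1s, with the prednisolone and high-difference arrays above the rest.

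High-difference grafts were set against low-difference grafts to ask what a donor much lighter than its recipient changes. Of the 8 followed genes measured on all arrays, 6 had lower average levels in the high-difference grafts, C1s by the widest margin among them. C3 and Cd55 lay the other way. C1s averaged 0.15 ± 0.79 in high-difference grafts, against 2.72 ± 0.56 in low-difference ones (SD, n = 2 each), a difference of -2.57 ± 0.49 (SE; limma, adjusted p = 0.271) or a 5.94-fold lower signal. With the main processing, C7 was at least 3.58-fold lower in high-difference grafts (measured means -6.57 and -3.59 for high and low difference). With normexp background correction, which compresses dim signals, its difference was -0.71, which is under the bound. C1qa, C1qb and C3ar1 differed by -1.51 ± 0.70, -1.45 ± 0.66 and -1.59 ± 0.75 (SE), C2 by -1.13 ± 0.45 and Cfi by -0.30 ± 1.04, and C3 and Cd55 by 0.91 ± 1.1 and 0.73 ± 0.24. The C3ar1 difference was -0.71 with normexp.

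None of the 9 genes passed for high minus low, and limma called 0 of 24462 genes in all (0% in each direction), with 3432 at an unadjusted p under 0.05. Without C7, 2 of 8 genes stood at that unadjusted level on the lower side (C1s and C2), against 7.3% of all genes, and 1 on the higher side (Cd55), against 6.73%. The arrays of the groups did not overlap, with high difference lower, for 5 of the 8 genes and 25.1% of all genes, and with high difference higher for 1 of the 8 and 30.7% of all, in sum 6 of the 8 against 55.8%. The median difference of the 8 genes was -1.29, against 0.04 over all genes tested. C3 rests on 1 array here, since its difference was -0.04 without the second high-difference array.

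Grafts given the anti-IL6R antibody were set against the untreated high-difference ones to ask what blocking this receptor changes. Of the 8 genes measured on all arrays, 7 had higher average levels in the treated grafts, and C1s and C2 lay furthest from the untreated ones relative to their error. C1s averaged 3.49 ± 0.58 in anti-IL6R and 0.15 ± 0.79 in high-difference grafts (SD, n = 2 each), a difference of 3.35 ± 0.49 (SE; limma, adjusted p = 0.141) or a 10.2-fold higher signal. With the main processing, C7 was at least 4.90-fold higher in anti-IL6R grafts (measured means -3.14 and -6.57 in anti-IL6R and high-difference grafts), but its difference with normexp was 0.72, which is under this bound. C2 differed by 1.97 ± 0.45 (SE; limma, adjusted p = 0.204), a 3.91-fold higher signal. C3ar1, C1qa and C1qb differed by 2.14 ± 0.75, 1.77 ± 0.70 and 1.61 ± 0.66, and the first was 1.07 with normexp. C3 and Cfi differed by 0.21 ± 1.1 and 0.51 ± 1.04, within their error, and Cd55 by -0.75 ± 0.24.

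None of the 9 genes passed for anti-IL6R minus high, where 0 of 24462 genes were called by limma (0% in each direction), with 4065 at an unadjusted p under 0.05. Without C7, 5 of 8 genes reached that unadjusted level on the higher side (C1qa, C1qb, C1s, C2 and C3ar1), against 7.93% of all genes, and Cd55 alone on the lower side, against 8.69%. The same 5 genes were those whose treated arrays lay wholly above the untreated ones (25.6% of all genes), and Cd55 lay wholly below (33.5%), in sum 6 of the 8 against 59.2%. The median of the 8 differences was 1.69, against -0.05 over all genes. In this and the other comparisons, C1qa, C1qb and C3ar1 ran together over the arrays (r of 0.97 or more) and are not separate observations. The genes were also chosen with earlier results of these data known, so these counts do not test complement as a set. With both prednisolone arrays left out, an alternative chosen after seeing how far apart they lay, limma called 1 of the 9, C2 (adjusted p = 0.0315), and 192 genes in all. Leaving out either prednisolone array alone gave the same 2 counts, since the lone array adds nothing to the estimate of spread. Without the first high-difference array 57 genes and 0 of the 9 were called. The high-difference arrays are shared with the comparisons against low-difference and of prednisolone grafts, so signs that oppose or repeat between them are not separate observations.

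**Figure D2:**
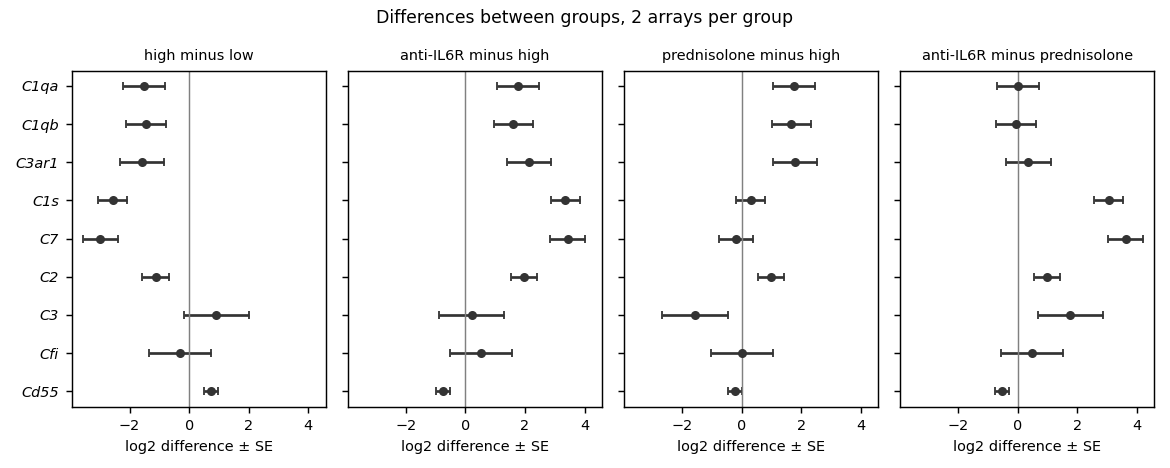
Difference in log2 level of the 9 genes (rows) in the 4 comparisons (panels), as points with the moderated standard error of limma; values right of 0 are higher in the first group of the panel title. C1s and C7 lie near 3 for anti-IL6R against both other high-difference groups and near 0 for prednisolone minus high; the C7 points are measured differences against groups in which it was not well above background.

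The comparison of prednisolone-treated with untreated high-difference grafts asked the same of the glucocorticoid. The 2 C1q genes and C3ar1 had higher average levels in the treated grafts, while C1s differed by less than its error. C1qa averaged 2.90 ± 1.57 in prednisolone and 1.14 ± 0.34 in high-difference grafts (SD, n = 2 each), a difference of 1.75 ± 0.70 (SE; limma, adjusted p = 0.419), and C1qb differed by 1.67 ± 0.66 and C3ar1 by 1.79 ± 0.75, or 0.99 with normexp. The values of C1qa, C1qb and C3ar1 rest mainly on the first prednisolone array, without which they were 0.64, 0.67 and 0.75 and with which alone they were 2.86, 2.68 and 2.83. C2 differed by 0.99 ± 0.45, and by 0.26 without that array. C1s differed by 0.30 ± 0.49, and C7 was not well above background in either group, so it is given no fold. C3 differed by -1.56 ± 1.1 and Cfi by 0.02 ± 1.04. For both of these the treated arrays lay more than 3 apart on the log2 scale, and the signs turned with the array left out: C3 was -3.24 without the first and 0.11 without the second prednisolone array, and Cfi -1.65 and 1.69.

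For prednisolone minus high, limma called 0 of the 9 genes and 0 of 24462 (0% in each direction), with 2808 at an unadjusted p under 0.05. C1qa and C1qb reached that unadjusted level on the higher side (4.49% of all genes), and none on the lower (6.99%). The arrays did not overlap, with prednisolone higher, for 4 of the 8 genes other than C7 (C1qa, C1qb, C3ar1 and C2), against 14.9% of all genes, and with prednisolone lower for 0 of the 8, against 23.6%, in sum 4 against 38.5%. The median difference of the 8 was 0.64, against -0.06 over all genes.

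Between the treatments, C1s had higher levels after anti-IL6R than after prednisolone, C7 was well above background only after anti-IL6R, and C1q hardly differed on average. C1s averaged 3.49 ± 0.58 in anti-IL6R and 0.44 ± 0.34 in prednisolone grafts (SD, n = 2 each), a difference of 3.05 ± 0.49 (SE; limma, adjusted p = 0.902) or an 8.27-fold higher signal. With the main processing, C7 was at least 5.15-fold higher in anti-IL6R grafts (measured means -3.14 and -6.76 in anti-IL6R and prednisolone grafts), but with normexp the difference was 1.13, under this bound. C1s stood 15th of 24462 genes by unadjusted p, at 0.000661. C2, C3 and Cd55 differed by 0.98 ± 0.45, 1.77 ± 1.1 and -0.54 ± 0.24. These values hung on the prednisolone arrays, being 1.70, 3.45 and -0.28 without the first and 0.25, 0.10 and -0.81 without the second. C1qa and C1qb differed by 0.02 ± 0.70 and -0.06 ± 0.66. Of the 9 genes limma called 0, as of all genes (0% in each direction), with 850 of these at an unadjusted p under 0.05, and of the 8 genes other than C7 C1s alone stood at that level, on the higher side (2.8% of all genes, and 0.679% on the lower). The arrays did not overlap for C1s and C2 on the higher side (13.2% of all genes) and for Cd55 on the lower (12.1%), in sum 3 of the 8 against 25.4%. Over the 20314 genes well above background on all arrays, as these 8 are, the shares without overlap either way were 56.7%, 59%, 37.7% and 23.9% in the 4 comparisons in the order given here.

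The 8 genes well above background on all arrays fell into sets by their pattern over the 8 arrays, given here as Pearson correlations of log2 levels that share arrays, scaling and treatment groups. C1qa and C1qb correlated at 0.998, and C3ar1 at 0.97 with each of them. C1s correlated with C1qa and C1qb at only 0.55. C2 lay between them, at 0.86 with C1qa and 0.77 with C1s. C3 correlated with no other of the 8 above 0.54, which was with Cfi, and Cd55 ran against C1s, at -0.86.

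**Figure D3:**
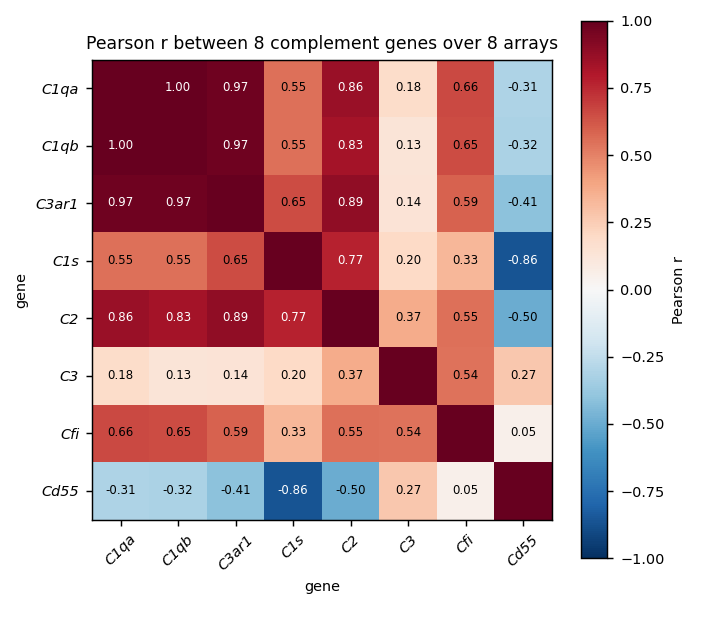
Pearson r of log2 levels over the 8 arrays for each pair of the 8 genes well above background on all arrays (colour and number; the diagonal is coloured without a number). C1qa, C1qb and C3ar1 form a block with r of 0.97 or more, C1s stands at 0.55 against both C1q genes, and Cd55 is at -0.86 against C1s.

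Among 10294 other genes with a symbol that were above background on all arrays, the 3 most like each of the 8 complement genes by Pearson r over the 8 arrays were as follows; C7 was left out as dim on 4 arrays. For C1qa they were C1qb (0.998), Rgs18 (0.995) and Myo1g (0.991), and for C1qb C1qa, Rgs18 (0.991) and Fermt3 (0.986). For C3ar1 they were Glipr1 (0.997), Tnfaip8l2 (0.996) and Entpd1 (0.994). C1s was followed most closely by Hcls1 (0.985), Adora2a (0.981) and C1r (0.977), its partner protease. C2 had, among its 3, Ccl5 (0.973), a T cell chemokine, and Prf1 (0.965), the pore protein of cytotoxic cells. C3 had lower values, with Zfp36 (0.927), Crk (0.918) and Rhbdf2 (0.908). Cfi had Slc4a4 (0.974), Spink1l (0.971) and Unc5cl (0.968), and Cd55 had Fbxo7 (0.98), Polr2i (0.979) and Plaa (0.979).

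Markers of other cells varied alongside these sets. Of 10 macrophage and monocyte markers 9 were tested and 8 were above background on all arrays. Their summed signal had log2 levels of 6.28 and 5.74 in anti-IL6R grafts, 6.49 and 4.48 in prednisolone grafts, 3.92 and 3.5 in high-difference grafts and 5.26 and 5.82 in low-difference grafts, with both high-difference arrays below the 6 others, as for C1q. This sum weighs the brightest genes most, above all Lyz2. Cd14, Mrc1 and Itgam did not have both high-difference arrays lowest, and Cd14 lay above 0 in high minus low. The sums of 2 further lists had both high-difference arrays lowest. For 10 T and NK cell markers, 3 of them above background on all arrays, they were 1.36 and 0.94, 1.09 and -0.36, -0.64 and -0.81, and 0.87 and 0.84 in anti-IL6R, prednisolone, high-difference and low-difference grafts. For 6 endothelial markers they were 6.08 and 5.89, 6.04 and 5.84, 5.54 and 5.07, and 5.92 and 6.08 in the same order of groups, a sum made almost wholly of Kdr. Taken singly, Kdr, Tie1 and Tek had both high-difference arrays lowest, and Pecam1, Cdh5 and Vwf did not. The pattern was thus not particular to macrophage genes. The macrophage gene Cd68 correlated over the 8 arrays at 0.98 with C1qa, 0.97 with C1qb and C3ar1 and 0.90 with C2, against 0.58 with C1s and 0.31 with C3. With the macrophage genes Csf1r and Aif1, C1s stood higher, at 0.74 and 0.70. These 2 genes correlated at 0.89 to 0.97 with C1qa, C1qb, C3ar1 and C2. Lower levels in high-difference grafts were not confined to these lists. Median differences for high minus low were -1.66 for macrophage, -1.73 for loop and distal nephron, -0.72 for podocyte and -0.64 for proximal tubule markers. Only the neutrophil list had a median above 0, at 0.3. In whole tissue, fewer cells of a type and less RNA per cell cannot be told apart, and the part of macrophage, lymphocyte, endothelial or nephron cell number in these differences was not tested. Fibroblast markers, of which 6 of 6 were tested and 5 were above background on all arrays, summed to 7.81 and 7.73 in anti-IL6R grafts, 6.74 and 6.80 in prednisolone grafts, 6.99 and 5.78 in high-difference grafts and 6.78 and 7.57 in low-difference grafts. Of these, Dcn, Pdgfrb and Lum, the last well above background on 3 arrays, split the arrays as C1s did, and the collagens Col1a1, Col1a2 and Col3a1 did not. The matrix proteoglycan Dcn had levels of 2.34 and 2.43, 0.45 and 0.74, 0.88 and -0.61, and 1.13 and 2.12 in anti-IL6R, prednisolone, high-difference and low-difference grafts. The proximal tubule transporters Slc34a1 and Slc22a6, 2 of 7 markers of that list, split the arrays in this way too. So did Cd3e, 1 of 10 T and NK cell markers, which was well above background on 2 arrays. For Lum and Cd3e the split thus rests partly on arrays without clear signal and adds no support to a pattern shared with C1s. The part of any of these cell types was not tested.

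Of 37 further complement genes listed by pathway role, 33 had a probe, 26 were tested and 17 were well above background on all arrays. Of these 17, 13 lay below 0 in high minus low with a median of -0.74, and 13 lay above 0 in anti-IL6R minus high with a median of 0.65. In prednisolone minus high 11 lay above 0 with a median of 0.53, and in anti-IL6R minus prednisolone 13 lay above 0 with a median of 0.28. Over the 20314 genes that met the same condition the medians were 0.07, -0.09, -0.07 and -0.02. None of the 26 passed in any comparison. Of the 17, 3, 5, 5 and 4 stood at an unadjusted p under 0.05, against 13%, 15%, 9.51% and 2.09% of the 20314 genes and 14%, 16.6%, 11.5% and 3.47% of all genes tested.

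C1r, C1qc and Serping1, of the classical pathway, had patterns close to those of the members they work with. C1r, the protease that activates C1s and its neighbour in the genome, had levels of 2.54 and 1.84 in anti-IL6R grafts, 0.63 and 0.12 in prednisolone grafts, 0.08 and -0.69 in high-difference grafts and 1.03 and 1.88 in low-difference grafts. Its differences were -1.76 ± 0.43 for high minus low, 2.49 ± 0.43 for anti-IL6R minus high, 0.68 ± 0.43 for prednisolone minus high and 1.81 ± 0.43 for anti-IL6R minus prednisolone (SE; limma, adjusted p = 0.321, 0.169, 0.554 and 0.999). C1qc, the third C1q chain, differed by -1.97, 2.30, 2.16 and 0.15 in the same order of comparisons, each ± 0.76 (SE), values near those of C1qa and C1qb, and its second probe gave -1.24, 1.67, 1.51 and 0.16. Serping1, the inhibitor of C1r and C1s, had levels of 7.24 and 6.81 in anti-IL6R grafts, 5.82 and 6.09 in prednisolone grafts, 6.24 and 6.51 in high-difference grafts and 7.10 and 7.12 in low-difference grafts. It split the arrays as C1s did, on a smaller scale, with differences of -0.74, 0.65, -0.42 and 1.07 (SE 0.23 each), and its second probe gave -0.67, 0.49, -0.44 and 0.93.

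C5 and C4a had their lowest levels after prednisolone. C5, the precursor of the chemoattractant C5a and the start of the attack complex, had levels of -1.41 and -1.15 in anti-IL6R grafts, -2.09 and -3.10 in prednisolone grafts, -0.89 and -1.03 in high-difference grafts and -1.48 and -1.25 in low-difference grafts. Both prednisolone arrays lay below all others, and prednisolone minus high was -1.63 ± 0.34 (SE; limma, adjusted p = 0.322), with -0.95 and -1.34 by the other 2 probes of the gene. C4a, the substrate of C1s, had levels of 2.65 and 3.05 in anti-IL6R grafts, 2.0 and 1.98 in prednisolone grafts, 2.94 and 3.02 in high-difference grafts and 3.02 and 3.51 in low-difference grafts. Again the prednisolone arrays were the 2 lowest, at a difference of -0.99 ± 0.24 from high-difference grafts (limma, adjusted p = 0.322), although the probe may also bind RNA of the near-identical C4b. Cfp, the alternative pathway stabiliser properdin, differed by 1.68 ± 0.49 in the same comparison, toward higher levels after prednisolone. This was not particular to prednisolone, as Cfp differed by 1.42 ± 0.49 for anti-IL6R minus high. Its levels were -1.62 and -2.47 in anti-IL6R grafts, -1.10 and -2.46 in prednisolone grafts, -3.65 and -3.27 in high-difference grafts and -2.64 and -2.49 in low-difference grafts.

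Among the genes named by the smallest p, the remaining ones were the lectin Fcnb, at -2.09 ± 0.91 for high minus low, and the attack complex inhibitor Vtn and the receptor chain Itgam, at 2.49 ± 0.82 and 2.54 ± 0.85 for anti-IL6R minus high (limma, adjusted p = 0.365, 0.254 and 0.256). Vtn and Itgam were well above background on 6 of 8 arrays each. C4bpa, a cofactor of factor I that was picked out after its values were seen and was well above background on 7 of 8 arrays, also had its highest array in the second high-difference graft, at -0.03, and its lowest in the second prednisolone one, at -5.38.

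**Figure D4:**
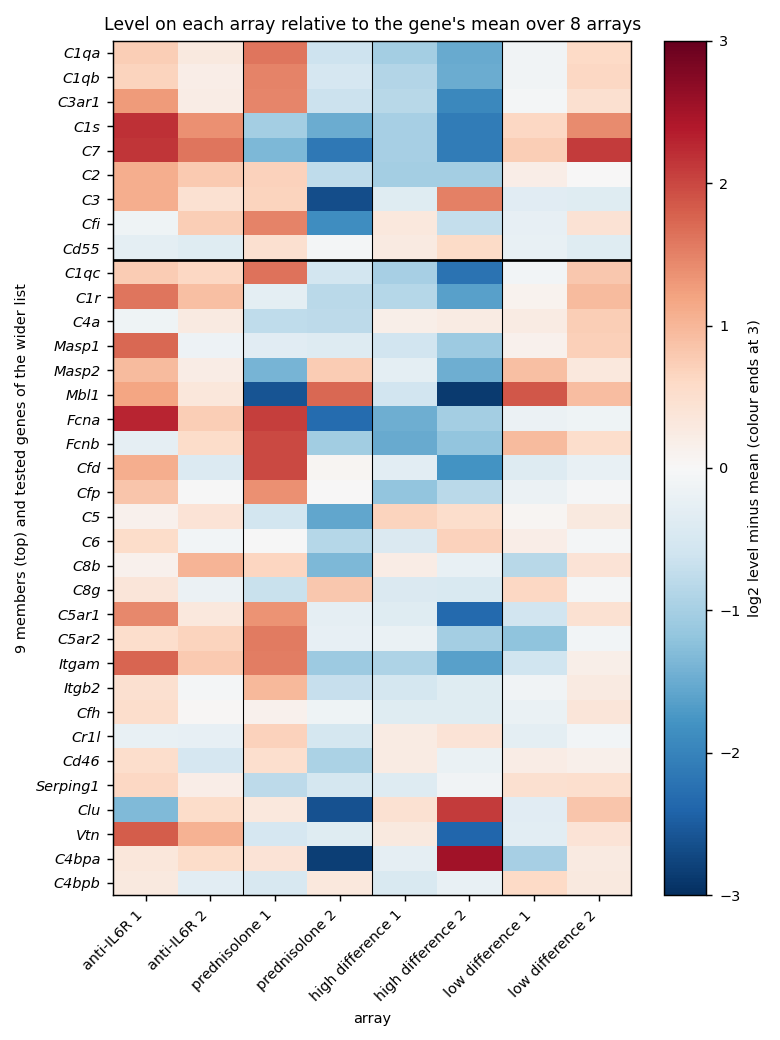
Log2 level of the 9 genes (above the line) and of the 26 tested genes of the longer complement list (below it) on each of the 8 arrays, minus the gene's own mean over the arrays (colour, red above and blue below the mean). C1s and C7 are red in anti-IL6R and low-difference grafts and blue in prednisolone and high-difference grafts, where C7 was not well above background. C1r runs the same way but is close to its mean on the first low-difference and first prednisolone arrays. C5 and C4a are blue on both prednisolone arrays, and C3, Clu and C4bpa are deep blue on the second prednisolone array.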

How the data were processed

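RNA of 8 kidney grafts was labelled with Cy3 and hybridised to 1-colour Agilent arrays, per the labels' protocols. The deposited signal intensity was quantified with Feature Extraction 9.5.1.1, background-subtracted and detrended within the array, with no scaling between arrays, per the file headers; flags (other columns) came with it. Control and outlier-flagged spots were left out, replicate spots averaged on the log2 scale, and each array's 75th percentile subtracted. Of 41012 probes, 765 lacked an unflagged spot on some array and 11561 were not well above background on both arrays of any group. The remaining 28686 stood for 24462 genes, each by its brightest probe, named through RefSeq GRCr8 accessions, symbols or synonyms (20973 probes kept the files' name). The probe positions in the files name no build, so none is printed.

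Groups came from the labels. limma 3.58.1 in R 4.3.3 fitted all 8 arrays together (4 residual and 2.38 prior degrees of freedom), with Benjamini-Hochberg adjustment over 24462 genes and a threshold of 0.05. An exact permutation test of 2 against 2 cannot give p below 0.33 and was not used. For a bound, the dim group was given the dimmest level well above background on each array, or the probe's level if higher. The fit was tested on simulated data. The members and lists were chosen with earlier results of these data known. Named genes are the 9 members, the 3 genes most like each (1 of them is not reported here), and the 4 of the longer list with the smallest p in each comparison. Alternatives were normexp, quantile and median scaling, other filters and probe rules, the authors' deposited value table of intensity, trend, same slide, a replicate block and leaving out arrays.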

Additional observations from a re-analysis of the deposited data

How the results depend on the processing

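With 2 arrays a group, the number of arrays limits every value, and dim signals limit C7 and C3ar1. No member passed under any alternative that kept all arrays. Without 1 array, high minus low gave 0 to 42 called genes, anti-IL6R minus high 0 to 192 (0 to 1 members), prednisolone minus high 0 to 221 and anti-IL6R minus prednisolone 0 to 132; a lone array is assumed to vary like the other groups. In this order of comparisons the counts were 42, 57, 36 and 0 when the first high-difference array was dropped. They were 29, 192, 221 and 132 when the first prednisolone array was dropped and 29, 192, 20 and 5 when the second was. Without both prednisolone arrays, an alternative chosen after seeing the data, 29 and 192 genes and 0 and 1 members were called in the first 2 comparisons. The member was C2 each time (1.97, adjusted p = 0.0315). Quantile normalization gave 3, 7, 4 and 2 called genes; median scaling and the authors' value table each gave 1 in each of the first 2. A fit within 1 slide was possible for high minus low and anti-IL6R minus prednisolone, and requiring signal on all arrays left no value for C7.

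With the replicate number as a block, 0 members and 0 genes were called in each comparison. Deviations of same-numbered arrays correlated between -0.35 and 0.37, so the numbers give no pairing. With the prednisolone numbers crossed, added because they correlated below 0 with the other groups, the counts were also 0 and 0.

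Over all alternatives 23 member values changed sign, none of them called, and the cause was not tested. Below, values without 1 array are given as the lowest and highest of those fits. For anti-IL6R minus prednisolone, C1qa ran from -1.09 to 1.13 (-0.21 without the first anti-IL6R array), C1qb from -1.07 to 0.95 (0.18 without the second anti-IL6R array), C3ar1 from -0.69 to 1.39 (-0.18 without the first anti-IL6R array) and Cfi from -1.18 to 2.16. C1qa was also -0.06 with normexp and with median scaling and -0.07 with the value table. For high minus low, C3 ran from -0.04 to 1.85 and Cfi from -0.81 to 0.21 (0.05 without the second low-difference array). For anti-IL6R minus high, C3 ran from -0.73 to 1.15 (-0.11 without the first anti-IL6R array) and Cfi from 0.00 to 1.03. For prednisolone minus high, C1s ran from -0.26 to 0.86, C3 from -3.24 to 0.11, C7 from -0.74 to 0.37 (0.21 without the second prednisolone array), Cfi from -1.65 to 1.69 (-0.49 without the second high-difference array) and Cd55 from -0.47 to 0.05. The median difference over all genes moved to 0.12, -0.18 and -0.11 with normexp in high minus low, anti-IL6R minus high and prednisolone minus high, and to -0.13 and -0.15 with median scaling and the value table in anti-IL6R minus high.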
